A study of Homo sapiens with 4 samples.

Results

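Carcinoembryonic antigen-related cell adhesion molecules (CEACAMs) and genes that mark the mature absorptive cell of the colon, the colonocyte, were followed in HT-29 cells with and without TRIM40. The set was defined by gene symbol and holds 10 of the 27685 genes in the deposited transcript tables: CEACAM1, CEACAM5, CEACAM6, CEACAM7, EPCAM, SLC26A3, CA1, CA2, AQP8 and GUCA2A. Of these, 8 had at least 1 read in some library, and 7 passed a filter on low counts and were tested for a difference. HT-29 is an established human colon cancer cell line. Both groups are untreated HT-29 cells grown in RPMI medium with serum. The Mock group, labelled Control with the genotype WT, carried a control vector, and the Myc-TRIM40 group, labelled TRIM40 overexpression, stably made N-terminally Myc-tagged TRIM40 from a pMSCV retroviral vector. TRIM40 is a ubiquitin E3 ligase, and the study asked what its excess does to colonic epithelial cells. Each group has 1 library in each of 2 experiments, so there are 4 libraries, and whether the stable cells were 1 clone or a pool is not given in the sources used here.

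CEACAMs are immunoglobulin-like proteins of the epithelial surface. CEACAM1 crosses the membrane and carries either a long cytoplasmic tail with inhibitory tyrosine motifs or a short tail without them, whereas CEACAM5 (the carcinoembryonic antigen used as a tumor marker), CEACAM6 and CEACAM7 are held by a lipid anchor. In the normal colon these genes are most active in the upper crypt and at the surface, where colonocytes also make the chloride-bicarbonate exchanger SLC26A3, the carbonic anhydrases CA1 and CA2, the water channel AQP8 and the peptide guanylin, encoded by GUCA2A. EPCAM, a homophilic adhesion protein, is present along the whole crypt.

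The 4 libraries held between 60954602 and 67424698 reads, at which 3 reads correspond to between 0.0445 and 0.0492 CPM (reads scaled to a fixed library total). TRIM40 had 0 reads in both Mock libraries, and with Myc-TRIM40 it had 272646 reads in experiment 1 and 110665 in experiment 2. Markers of the labelled colon cancer line were present. KRT8, a keratin of simple epithelia, had between 3355 and 4435 FPKM (reads scaled by library total and transcript length), and 8 of 8 epithelial genes were detected and tested. The intestinal genes among them were uneven. LGALS4 had between 414 and 479 FPKM and VIL1 between 49.4 and 78.9 FPKM. CDX2 had only 1.22 to 1.39 FPKM, CDX1 0.323 to 0.414 FPKM and CDH17 0.221 to 0.433 FPKM. Among genes of other cell types, 4 of 6 fibroblast genes, CD3E of the blood cell genes, CDH5 of 3 endothelial genes and 2 of 3 enteroendocrine genes had 0 reads in all libraries. COL1A1, the fibroblast gene with the highest level, had at most 0.945 FPKM, PECAM1 of endothelium at most 0.109 FPKM and CHGA of enteroendocrine cells at most 0.011 FPKM. The summed level was 0.879 to 1.36 FPKM for the fibroblast list and 0.068 to 0.134 FPKM for the endothelial list. In the blood cell list LYZ had between 1356 and 1860 FPKM and CD14, a monocyte gene, between 1.43 and 2.61 FPKM, while PTPRC, the pan-leukocyte CD45 gene, had at most 0.012 FPKM. The Mock library of experiment 2 stood apart in 1 respect that touches the results below: relative to the Mock library of experiment 1, genes with short transcripts were higher and genes with long transcripts lower. The median log2 ratio of normalized reads was 0.59 for the 1399 tested genes with a leading transcript under 1 kb and -0.49 for the 4603 genes of 4 kb or more. Between the Myc-TRIM40 libraries, experiment 2 over experiment 1, these medians were 0.07 and -0.16.

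The 10 genes differed widely in level. EPCAM, whose mean level of 437.5 FPKM ranked 144 among all genes, was followed by CEACAM1 with a mean of 25.0 FPKM. CEACAM6 averaged 6.07 FPKM and CA2 4.69 FPKM, and these neighbors were not separated by their spread, since CA2 was the higher of the pair in experiment 1 and CEACAM6 in experiment 2. CEACAM5 averaged 1.93 FPKM, GUCA2A 0.546 FPKM and CEACAM7 0.232 FPKM. Apart from CEACAM6 and CA2, the ranges over the 4 libraries of these 7 genes did not overlap between neighbors in the order. CA1 had 2 reads in 1 library, and SLC26A3 and AQP8 had 0 reads in every library, which allows up to 0.0492 CPM each. Thus 3 genes that define the mature colonocyte were at or near 0 whatever the group. FPKM is scaled by transcript length, so levels may be compared between genes on this scale; RNA was extracted from whole cultures, in which fewer cells expressing a gene and less RNA per cell cannot be told apart.

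**Figure D1:**
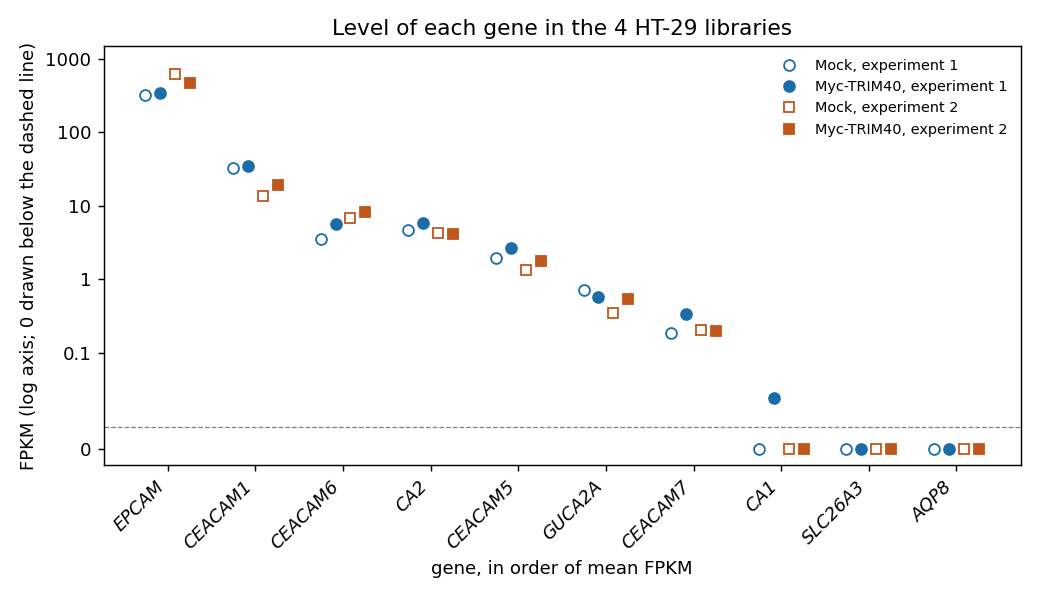
Level of each gene in FPKM on a log axis in the Mock (open symbols) and Myc-TRIM40 (filled symbols) libraries of experiment 1 (circles) and experiment 2 (squares), with genes ordered by mean and a value of 0 drawn under the dashed line. The genes fell from EPCAM, at 321.8 to 621.0 FPKM, to SLC26A3 and AQP8, at 0 in all 4 libraries.

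The question put to these genes was whether they differed between Myc-TRIM40 and Mock cells. None of the 7 tested genes passed an adjusted p of 0.05 (edgeR's quasi-likelihood test on summed reads with the experiment as a block, Benjamini-Hochberg adjustment over 14868 genes), a threshold that 0.0605% of all tested genes passed. No member reached an unadjusted p under 0.05 either, with edgeR or with the 5 other gene-wise fits (DESeq2, limma, no block, upper-quartile scaling, no filter), whereas 675 of the 14868 genes did in edgeR. The estimate was above 0 for 6 of the 7, as it was for 54.9% of all tested genes, with a median log2 fold change of 0.21 against 0.04 over all tested genes. CEACAM1, CEACAM5 and CEACAM6 were higher in Myc-TRIM40 in both experiments, and this held with FPKM, TPM and median-centred ratios. No member was lower in both, and the other 4 went opposite ways, although on TPM, a form of FPKM whose sum is equal in all libraries, CEACAM7 and CA2 were also higher in both. Over all tested genes 28.6% were higher in both experiments and 26.3% lower in both. On a ratio of FPKM + 1, 0 of the 10 genes reached 1.5-fold in experiment 1, where 2.12% of all genes did, and 0 in experiment 2, where 6.3% did, so that none was among the 0.311% of genes that did so in both. The pseudocount of 1 FPKM understates the change of CEACAM5, GUCA2A and CEACAM7, whose levels were about or under that value. The counts within 1 experiment depend on this scale. With a pseudocount of 0.1 FPKM, CEACAM6 (log2 ratio 0.67) and CEACAM7 (0.61) passed 1.5-fold in experiment 1. On TPM + 1, CEACAM6 passed in experiment 1 (0.65) and CEACAM1 in experiment 2 (0.71). No member passed in both experiments on either scale. With 2 libraries in each group, the smallest two-sided p of an exact permutation test that ignores the experiments is 0.333. Permuting only within experiments allows fewer arrangements, so its smallest p is higher still. No single gene was put to either test. The edgeR p-values rest only on how far the ratio of the groups differed between these 2 experiments. That spread was estimated with information shared across all tested genes.

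**Figure D2:**
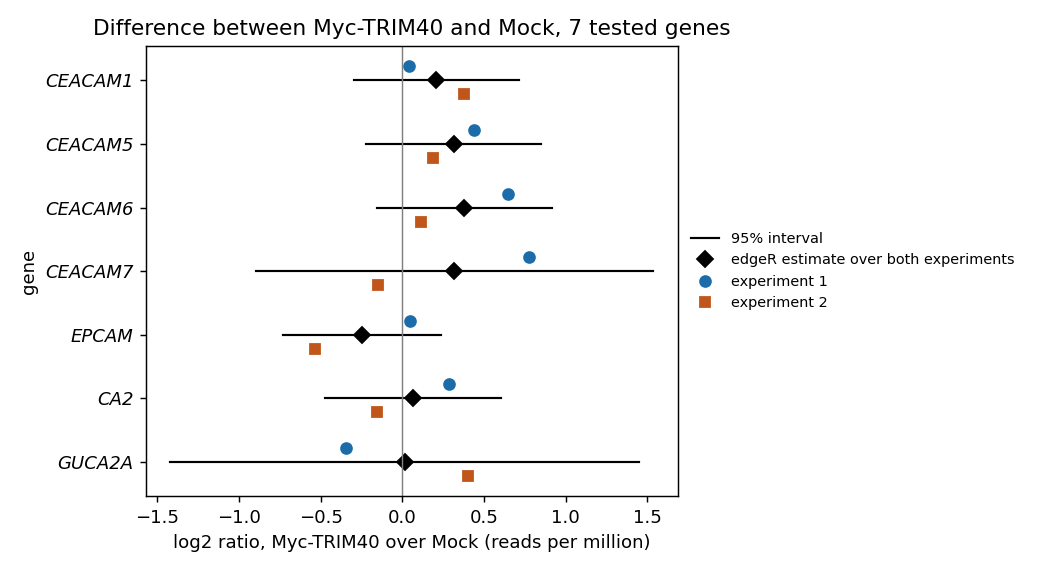
Log2 ratio of Myc-TRIM40 to Mock for the 7 tested genes, as the edgeR estimate over both experiments (diamond) with its 95% interval (line) and as the ratio of normalized reads in experiment 1 (circle) and experiment 2 (square). All 7 intervals include 0, the circle and the square lie on the same side of 0 for CEACAM1, CEACAM5 and CEACAM6, and the widest intervals belong to CEACAM7 and GUCA2A.

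CEACAM1 (Entrez gene 634), an adhesion receptor that also restrains signaling in epithelial and immune cells, was the most abundant CEACAM. Its level was 32.7 FPKM in Mock and 34.5 FPKM in Myc-TRIM40 cells in experiment 1, and 13.7 and 19.2 FPKM in experiment 2. The groups therefore overlapped, and both libraries of experiment 1 were above both of experiment 2. The log2 ratio was 0.04 in experiment 1 and 0.38 in experiment 2, and the fitted log2 fold change was 0.21 (SE 0.22, 95% interval -0.30 to 0.71, adjusted p = 0.899, edgeR). This interval allows anything from 0.814 to 1.64 times the Mock level. By comparison, the Mock libraries themselves differed 2.27-fold, being higher in experiment 1, which is more than either ratio between the groups. The gene lies on chromosome 19 from 43011458 to 43032661 in the deposited positions, for which the submitters' notes list hg19, within the span of LIPE-AS1, which had between 8 and 15 reads.

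The CEACAM1 reads were spread over 6 RefSeq transcript variants, of which 3 hold and 3 lack a 53-base exon that decides the cytoplasmic tail. This exon, number 7 of the 9 exons of variant 1, lies within the coding sequence at chr19:42511576-42511628 (GRCh38, minus strand, GENCODE 29), and its length is not a multiple of 3. Keeping it gives the long tail, and skipping it shifts the reading frame and ends the protein early with the short tail. It is printed in capitals between the last 15 bases of the exon before it and the first 15 bases of the exon after it, as these meet in the messenger RNA, because it is the feature that separates the 2 leading variants.
CEACAM1 exon 7 with flanks: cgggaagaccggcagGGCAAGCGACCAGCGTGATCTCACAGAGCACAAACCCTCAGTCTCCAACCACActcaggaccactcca

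Reads assigned to variants with this exon numbered 3638 of 7057 in Mock and 3461 of 7459 in Myc-TRIM40 cells in experiment 1, and 1875 of 3248 and 1904 of 4255 in experiment 2. The share was thus 51.6% (Wilson 95% interval 50.4 to 52.7) in Mock and 46.4% (45.3 to 47.5) in Myc-TRIM40 cells in experiment 1, and 57.7% (56.0 to 59.4) and 44.7% (43.3 to 46.2) in experiment 2. It was lower in Myc-TRIM40 cells in both experiments, with differences of -5.15 and -13.0 percentage points, and the groups did not overlap. The intervals cover counting error only, and the split of reads between variants is an estimate made by the authors' software, not a count of reads across the exon's junctions. In experiment 2, the variant of 3231 bases, which holds the exon, took 17.2% of CEACAM1 reads in Mock and 7.47% in Myc-TRIM40 cells. Moves of this kind were common on a related measure, the share within the 2 leading transcripts of a gene. On it, the CEACAM1 variant of 3466 bases, which lacks the exon, rose by 7.63 and 8.53 percentage points. Among 5668 genes with at least 200 reads on their 2 leading transcripts in every library, the share of the first moved by at least 5 percentage points the same way in both experiments in 14.4%. Among the 2083 genes whose mean share lay between 30% and 70%, as that of CEACAM1 did, the percentage was 22.8%, and the groups did not overlap for 29.5% of the 5668 genes. Against this background the exon share is a description of CEACAM1 and no result particular to it; the measure and its limits were chosen after its values were seen. CEACAM1 was the only member with such a pair of transcripts.

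**Figure D3:**
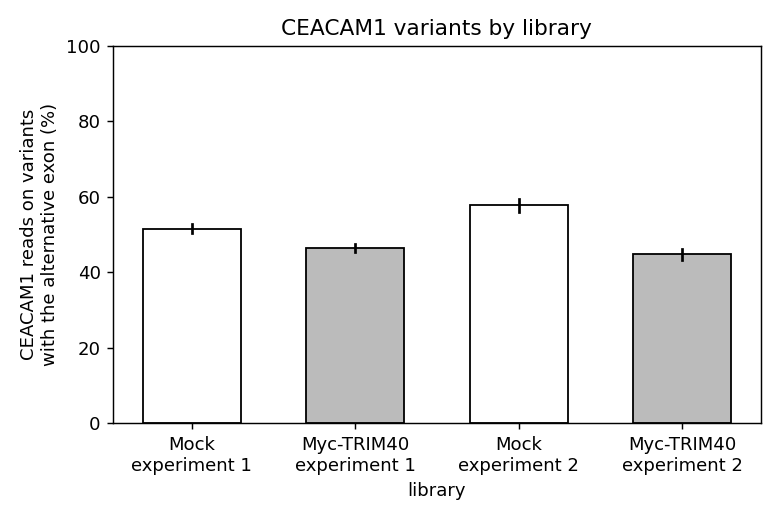
Percent of CEACAM1 reads assigned to transcript variants that hold the alternative exon in each of the 4 libraries (open bars, Mock; grey bars, Myc-TRIM40), with Wilson 95% intervals as vertical lines. The Myc-TRIM40 bars, at 46.4% and 44.7%, are lower than the Mock bars, at 51.6% and 57.7%.

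The value of CEACAM1 moved with how transcripts were counted. With only its leading transcript, variant 2 of 3466 bases, which skips the exon, the log2 fold change was 0.56 in place of 0.21, with an unadjusted p of 0.0378 and an adjusted p of 0.888 (edgeR), which did not pass the threshold. Across the 4 libraries, the 3 of 11754 other genes whose normalized reads followed CEACAM1 most closely were GRHL3, PRR36 and MINDY1, with root mean square differences of 0.024, 0.026 and 0.029 on the log2 scale. GRHL3, an epithelial transcription factor, had 6.97 and 7.29 FPKM in experiment 1 and 3.03 and 4.04 FPKM in experiment 2 in Mock and Myc-TRIM40 cells. With 4 libraries, such likeness rests mainly on the gap between the experiments.

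CEACAM5 (Entrez gene 1048) lies on chromosome 19 from 42212504 to 42234341. It had 1.94 FPKM in Mock and 2.66 FPKM in Myc-TRIM40 cells in experiment 1, and 1.36 and 1.76 FPKM in experiment 2. Myc-TRIM40 was the higher in each experiment, but the Mock value of experiment 1 exceeded the Myc-TRIM40 value of experiment 2. The log2 ratios were 0.44 and 0.19, and the fitted log2 fold change was 0.31 (SE 0.23, 95% interval -0.22 to 0.85, adjusted p = 0.888, edgeR).

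CEACAM6 (Entrez gene 4680), a lipid-anchored CEACAM known as a receptor for adherent-invasive bacteria in the inflamed gut, lies on chromosome 19 from 42259428 to 42276113. It had 3.55 FPKM in Mock and 5.70 FPKM in Myc-TRIM40 cells in experiment 1, and 6.88 and 8.14 FPKM in experiment 2. Here the libraries of experiment 2 were the higher, opposite to CEACAM1, and the groups overlapped. Its 578 and 930 reads in experiment 1 gave a 1.57-fold difference in normalized reads, and its 1243 and 1360 reads in experiment 2 gave a 1.08-fold difference. The fitted log2 fold change, 0.38 (SE 0.23, 95% interval -0.16 to 0.92, adjusted p = 0.888, edgeR), was the largest of the 7. The Mock libraries differed 2.06-fold, more than either difference between the groups.

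CEACAM7 (Entrez gene 1087), which in normal tissue is largely limited to the colon and pancreas, lies on chromosome 19 from 42177235 to 42192206. It was close to the limit of detection, with 29 and 51 reads in Mock and Myc-TRIM40 cells in experiment 1 and 34 and 31 reads in experiment 2. Its level was 0.187 and 0.336 FPKM in experiment 1 and 0.206 and 0.200 FPKM in experiment 2. The log2 fold change of 0.32 (SE 0.53, 95% interval -0.90 to 1.54, adjusted p = 0.934, edgeR) had an interval that runs from 0.536 to 2.90 times the Mock level. All its reads were assigned to the variant of 2399 bases in experiment 1 and all to the variant of 2379 bases in experiment 2, in both groups, which shows how far the assignment to variants can differ between these tables.

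The 4 CEACAMs are paralogs, so reads may be divided between them. In the reference transcripts, 56 of the 3470 stretches of 50 bases in CEACAM1, 61 of 2825 in CEACAM5 and 75 of 2651 in CEACAM6 were also found in another of the 4, against 0 of 2440 in CEACAM7, and no stretch of 100 bases was shared by any of them. The longest identical runs between CEACAM1 and CEACAM5, of 68 bases, and between CEACAM1 and CEACAM6, of 71 bases, both lie within coding exons. A read lying wholly inside such a run would match both genes, whereas a longer read would also cover bases that differ. How many reads lay wholly inside was not tested. In each printed run, capitals mark the part that CEACAM7 holds as well. The first is at chr19:42522021-42522088 in CEACAM1 (minus strand) and chr19:41715085-41715152 in CEACAM5 (plus strand), and the second is at chr19:42527106-42527176 in CEACAM1 and chr19:41756824-41756894 in CEACAM6 (plus strand), all in GRCh38.
CEACAM1 and CEACAM5: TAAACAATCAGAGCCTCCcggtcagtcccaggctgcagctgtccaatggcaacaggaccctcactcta
CEACAM1 and CEACAM6: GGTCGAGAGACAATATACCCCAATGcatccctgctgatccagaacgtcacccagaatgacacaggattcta

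Summing the 4 sets aside how reads were divided among them. Sharing of reads with other genes was not examined. Their joint reads were 8068 in Mock and 9002 in Myc-TRIM40 cells in experiment 1, and 4858 and 6029 in experiment 2, a ratio of normalized reads of 1.09 and 1.23. The fitted log2 fold change of the sum was 0.21 (SE 0.22, 95% interval -0.29 to 0.71, adjusted p = 0.897, edgeR). The make-up of the sum differed more between experiments than between groups. CEACAM1 took 87.5% and 82.9% of the joint reads in Mock and Myc-TRIM40 cells in experiment 1 and 66.9% and 70.6% in experiment 2, whereas CEACAM6 took 7.16% and 10.3% and then 25.6% and 22.6%. Each of these shares moved 1 way in experiment 1 and the other way in experiment 2. Of 8 other CEACAM genes, 3 had 0 reads in all libraries and 2 were tested, with 0 passing in either direction. CEACAM19, the highest of them, had 0.939 and 1.65 FPKM in experiment 1 and 0.542 and 0.555 FPKM in experiment 2 (log2 fold change 0.36, SE 0.35, adjusted p = 0.892, edgeR).

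EPCAM (Entrez gene 4072), on chromosome 2 from 47596287 to 47614167, was the only tested member with an estimate below 0. It had 321.8 FPKM in Mock and 340.5 FPKM in Myc-TRIM40 cells in experiment 1, and 621.0 and 466.9 FPKM in experiment 2. The 3 values other than the Mock library of experiment 2 were thus the lower ones, and the log2 ratio was 0.05 in experiment 1 and -0.54 in experiment 2. The fitted log2 fold change was -0.25 (SE 0.21, 95% interval -0.73 to 0.24, adjusted p = 0.888, edgeR), and it rested on experiment 2. MIR559, which lies within EPCAM, had between 3 and 6 reads.

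Transcript length moved with this value. In experiment 2 the median log2 ratio of all tested genes climbed from -0.54 for genes under 1 kb through -0.35, -0.08 and 0.11 for the classes of 1 to 2, 2 to 3 and 3 to 4 kb to 0.39 for genes of 4 kb or more, while in experiment 1 the same 5 medians lay between -0.05 and 0.02. The EPCAM transcript is 1718 bases long, and its ratio in experiment 2 was 0.19 under the median of its class on the log2 scale. With each ratio taken relative to its class, a choice made after the data were seen, the mean over both experiments was -0.06 for EPCAM and 0.15 for CEACAM1 in place of -0.25 and 0.21. It went the other way for CA2, to 0.25 in place of 0.06, and for GUCA2A, to 0.32 in place of 0.01, and was 0.26 for CEACAM5, 0.42 for CEACAM6 and 0.36 for CEACAM7. CEACAM1, CEACAM5, CEACAM6 and CA2 lay above their class in both experiments, CA2 by 0.30 and 0.19. The other tested members changed sides of their class between experiments 1 and 2. They were GUCA2A at -0.30 and 0.95, CEACAM7 at 0.77 and -0.06, and EPCAM at 0.07 and -0.19. What part length plays in these differences was not tested further.

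**Figure D4:**
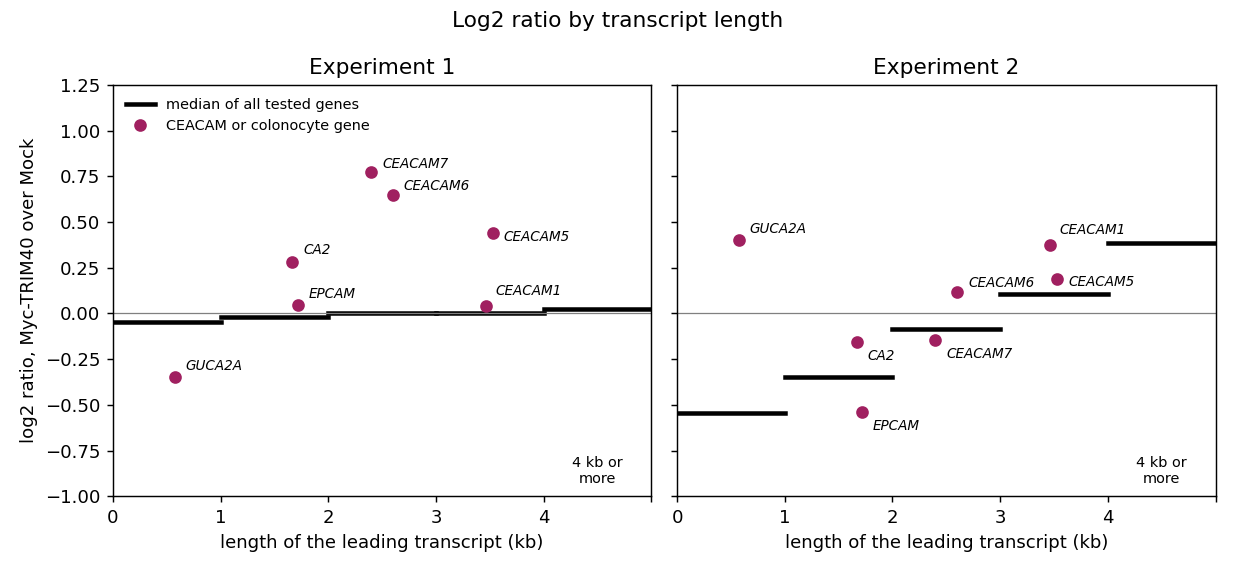
Log2 ratio of Myc-TRIM40 to Mock in normalized reads against the length of the transcript with the most reads, for experiment 1 (left) and experiment 2 (right), with points for the 7 tested genes and horizontal lines for the median of all tested genes in each length class (the last class, 4 kb or more, is drawn 1 unit wide). In experiment 2 the medians run from -0.54 to 0.39 and EPCAM, at -0.54, lies under its class, while in experiment 1 the medians stay between -0.05 and 0.02.

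EPCAM works at the membrane with tetraspanins, claudins and the protease matriptase, and 7 of 7 such partners and relatives were tested. None passed in either direction, and the median log2 fold change was -0.04. SPINT2, the matriptase inhibitor with the highest level in this list, had 382.0 and 386.5 FPKM in Mock and Myc-TRIM40 cells in experiment 1 and 549.8 and 398.5 FPKM in experiment 2. Its log2 fold change was -0.30 (SE 0.21, adjusted p = 0.888, edgeR), with the high Mock library of experiment 2 seen for EPCAM. TSPAN8, named after its values were seen, had 167.0 and 168.5 FPKM in experiment 1 and 393.6 and 291.6 FPKM in experiment 2, again with the Mock library of experiment 2 the highest.

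The carbonic anhydrases CA1 (Entrez gene 759) and CA2 (Entrez gene 760) convert carbon dioxide and water to bicarbonate and protons and feed the exchangers of the surface cell. CA1 had 0 reads in 3 libraries and, with Myc-TRIM40, 2 reads in experiment 1, under the limit of 3 reads set here, so no fold is given. CA2 was expressed at a moderate level, with 4.64 FPKM in Mock and 5.79 FPKM in Myc-TRIM40 cells in experiment 1 and 4.22 and 4.14 FPKM in experiment 2. Its Mock libraries differed 1.03-fold, the least of the 7 tested genes. The log2 ratio of normalized reads was 0.28 in experiment 1 and -0.16 in experiment 2, where on TPM + 1 it was 0.18. The fitted log2 fold change was 0.06 (SE 0.24, 95% interval -0.47 to 0.60, adjusted p = 0.971, edgeR), an interval from 0.720 to 1.52 times the Mock level. Of 13 other carbonic anhydrases, 7 were tested and 0 passed in either direction. CA12, a membrane-bound form facing the outside of the cell and the highest of these, had 48.4 and 48.6 FPKM in experiment 1 and 24.6 and 39.5 FPKM in experiment 2 (log2 fold change 0.26, SE 0.24, adjusted p = 0.888, edgeR).

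SLC26A3 (Entrez gene 1811), which exchanges luminal chloride for bicarbonate and is mutated in congenital chloride diarrhea, had 0 reads in the 4 libraries. AQP8 (Entrez gene 343), a water channel of the colonocyte surface, also had 0 reads in each. The difference between groups could not be measured for either. Other parts of the transport apparatus were present: of 13 further anion and sodium transport genes 11 were tested, and 0 passed in either direction, with a median log2 fold change of 0.11. Among 7 other aquaporins, 5 were tested and 0 passed. AQP3, a channel for water and glycerol, had 43.8 and 44.6 FPKM in experiment 1 and 23.5 and 26.5 FPKM in experiment 2 (log2 fold change 0.02, SE 0.21, adjusted p = 0.995, edgeR).

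GUCA2A (Entrez gene 2980), on chromosome 1 from 42628362 to 42630395, encodes guanylin, a secreted peptide that drives chloride secretion through the receptor guanylyl cyclase C. It had 26 reads in Mock and 21 in Myc-TRIM40 cells in experiment 1 and 15 and 20 reads in experiment 2, which is 0.717, 0.579, 0.351 and 0.539 FPKM. The 2 experiments went opposite ways, with log2 ratios of -0.35 and 0.40, and both Myc-TRIM40 values lay between the Mock values. The fitted log2 fold change was 0.01 (SE 0.63, 95% interval -1.42 to 1.45, adjusted p = 0.998, edgeR), an interval from 0.374 to 2.73 times the Mock level. Of the other 5 genes of the pathway 4 were tested and 0 passed. GUCY2C, the receptor, had at most 0.017 FPKM and was not tested. CFTR, the chloride channel at the end of the pathway and its highest gene, had 29.5 and 27.7 FPKM in experiment 1 and 19.1 and 30.5 FPKM in experiment 2 (log2 fold change 0.21, SE 0.24, adjusted p = 0.901, edgeR).

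A further 25 genes of the absorptive and surface cell were followed beside the set, of which 4 had 0 reads in all libraries and 17 were tested. None passed in either direction. Beside 675 of all 14868 tested genes at an unadjusted p under 0.05 in edgeR, this list had 1 higher and 1 lower. These were CDHR5, a protocadherin of the brush border, and PHGR1, a small protein of the colonic surface, both named because of their values. CDHR5 had 6.15 and 13.6 FPKM in experiment 1 and 4.42 and 5.90 FPKM in experiment 2 (log2 fold change 0.71, SE 0.25, adjusted p = 0.888, edgeR). PHGR1 had 8.09 and 5.98 FPKM in experiment 1 and 17.5 and 11.5 FPKM in experiment 2 (log2 fold change -0.60, SE 0.25, adjusted p = 0.888, edgeR). TSPAN1, the highest of the list, had 144.5 and 154.2 FPKM in experiment 1 and 185.7 and 147.5 FPKM in experiment 2 (log2 fold change -0.20, SE 0.23, adjusted p = 0.900, edgeR). The median log2 fold change of the 17 was 0.11. Among 4 genes of goblet cells, the other main lineage of the crypt, 4 were tested and 0 passed, with 1 higher at an unadjusted p under 0.05 in edgeR. SPDEF, their transcription factor and the highest of the list, had between 25.0 and 28.5 FPKM. Named because of their values, FCGBP, which encodes a mucus protein, had 0.954 and 1.22 FPKM in experiment 1 and 0.129 and 0.353 FPKM in experiment 2 (log2 fold change 0.80, SE 0.28, adjusted p = 0.888, edgeR), and the mucin MUC2 had 3.88 and 4.04 FPKM and then 0.343 and 0.983 FPKM (log2 fold change 0.68, SE 0.33, adjusted p = 0.888, edgeR). For both, the values of experiment 2 were the lower ones and the Mock library of experiment 2 was the lowest. The other genes of the goblet list went the other way, with log2 fold changes of -0.14 for SPDEF and -0.11 for TFF3.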

How the data were processed

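RNA-seq of HT-29 cells with a control vector (Mock) or Myc-TRIM40 was analysed, with 2 libraries per group from 2 experiments. The authors deposited, per RefSeq transcript, estimated counts of reads (whole numbers, not normalized), FPKM and, for experiment 2, TPM; the TPM of experiment 1 were derived here from its FPKM. The authors used a TruSeq Stranded mRNA kit; the submitters' notes list HISAT2 2.1.0, StringTie 1.3.4d and hg19, and the counting settings, strand included, are not given in the sources used here. The 63714 transcripts were summed to 27685 genes.

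Genes kept by filterByExpr (14868) were tested with edgeR 4.0.16 (quasi-likelihood, TMM, R 4.3.3) with the experiment as a block, since each deposited table holds 1 Mock and 1 Myc-TRIM40 library of the same replicate number. Same-numbered libraries deviated together (correlation 0.396 across genes). The test was tested on simulated data. Alternatives were no block, DESeq2 1.42.0, limma 3.58.1, other scalings, filters and pseudocounts, single transcripts, summed CEACAMs and each experiment left out; the length classes and the transcript shares were added after seeing the data. Named genes are all members and, per related list, genes past the threshold, genes changed 1.5-fold in both experiments and the gene with the highest FPKM; others are marked, and a few values under this rule are left out. The members and lists were chosen with earlier results of these data known. Columns of the authors' comparisons were not used. Sequences are from GENCODE 29, matched by RefSeq identifier, and no coordinates were converted between builds.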

Additional observations from a re-analysis of the deposited data

How the results depend on the processing

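The number of these genes past the threshold was 0 in the edgeR fit and in the 5 other fits. On the rule of 1.5-fold in both experiments it was 0 under the 7 other settings too. With 1 experiment left out, that rule rests on the other experiment alone. Over all genes the edgeR fit with the block called 9; no replicate block called 0 (153 at an unadjusted p under 0.05), DESeq2 54 (542), limma 3 (721) and no filter 0 (447), and the edgeR, DESeq2 and limma fits are paired by experiment. Of all genes, 86 changed 1.5-fold in common, against 486 with a pseudocount of 0.1, 204 with TPM, 25 at 2-fold and 588 to 1744 with 1 experiment left out. The causes were not tested. Of 115 alternative values for single members, 101 kept their side of the threshold or moved by less than the spread between experiments, 12 moved by more, in ratios of CEACAM5, CEACAM7, CA1, CA2 or GUCA2A on FPKM or TPM, and 2 reversed in a tested fit: GUCA2A was -0.032 with no replicate block and -0.0029 with DESeq2. The values with 1 experiment left out count among the 101 by construction, because each lies within the spread between experiments whatever the data. Signs turned in some of them, which have no test: CEACAM7 to -0.15 and CA2 to -0.16 without experiment 1, and EPCAM to 0.05 and GUCA2A to -0.35 without experiment 2. On TPM + 1 the ratios of CEACAM7 and CA2 in experiment 2 turned to 0.06 and 0.18. The lowest adjusted p of a member under any of the 46 tested alternatives was 0.804. CEACAM7 and GUCA2A had few reads and the widest intervals, and no difference can be measured for SLC26A3 and AQP8, at 0 reads.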
